A study of Mus musculus with 4 samples.

Results

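The troponin complex is the calcium switch of striated muscle, and its 8 genes in the table, Tnnt1, Tnnt2, Tnnt3, Tnni1, Tnni2, Tnni3, Tnnc1 and Tnnc2, are described here in the right ventricle of adult Ezh2-deficient mice and their wild types. They are 8 of the 29595 rows of the table and were taken by gene symbol alone. RNA was sequenced from 2 Ezh2-deficient and 2 wild-type hearts, all adult and of a mixed C57BL/6 background, called mutant 1, mutant 3, wild type 1 and wild type 2 after their labels. Ezh2 is the enzyme of Polycomb repressive complex 2, which silences genes by methylating histone H3. The labels give no Cre driver, deleted exon, age in weeks or pooling of animals, which limits what the mutant group can stand for.

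Troponin T (TnT) ties the complex to tropomyosin on the thin filament, troponin I (TnI) blocks the contact of actin with myosin, and troponin C (TnC) binds calcium and lifts that block. Adult ventricle is known for Tnnt2, Tnni3 and Tnnc1. Slow skeletal fibres use Tnnt1 and Tnni1 with the same TnC as the heart, while fast fibres use Tnnt3, Tnni2 and Tnnc2. Tnni1 is also the main TnI gene of the fetal heart and gives way to Tnni3 around birth.

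The libraries held 21707784 and 23853394 reads in the mutants and 20093783 and 18177642 reads in the wild types. Mitochondrial genes took 40.3% and 47.3% of the mutant reads, against 34.7% and 41.2% of the wild-type reads. The Y-linked gene Ddx3y had 754 and 659 reads in mutant hearts, against 2 and 2 in wild-type hearts, so effects of genotype and of sex cannot be told apart in any value given here. The Ezh2 row held 73 and 70 mutant reads, against 77 and 67 wild-type reads, which overlap; the labels do not say which part of the gene was deleted, so this row does not check them. Ventricular muscle markers were high in all 4 libraries: the summed level of 11 of them, Tnnt2 and Tnni3 included, was 61383 and 66477 CPM in the mutants, against 60045 and 54892 CPM in the wild types (CPM, counts scaled to a common library size with edgeR's TMM factors). A nuclease step in library construction lowered the share of abundant transcripts, so levels of the cardiac troponins relative to rarer genes, and their fold changes, may be compressed. In this bulk tissue, fewer cells of a type and less RNA per cell cannot be told apart.

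The slow skeletal genes were higher in both mutant hearts, the cardiac TnC gene was higher by a smaller factor, and the fast skeletal genes were high in mutant 1 alone. Of the 7 troponin genes that could be tested, 0 passed at an adjusted p under 0.05 (edgeR's quasi-likelihood test with Benjamini-Hochberg adjustment). Of all 16128 rows tested, 0.13% passed, 0.105% as higher in the mutants. At an unadjusted p under 0.05, 5 of the 7 were higher in the mutants and 0 were lower, beside 6.49% of all rows that were higher and 10.9% that differed in either direction. By DESeq2, 3 of the 8 passed, Tnnt1, Tnni1 and Tnnc1, all higher, beside 0.939% of all rows called higher by that tool and 1.21% called in either direction. Both mutants exceeded both wild types for 5 of the 7, as they did for 22.3% of all rows; the groups did not overlap in either direction for 44.8% of rows. The eighth gene, Tnnc2, fell below the filter on low counts, with 759 reads in mutant 1 and at most 3 in any other library. Tnni1 and Tnnt3 passed that filter through the mutants alone.

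**Figure D1:**
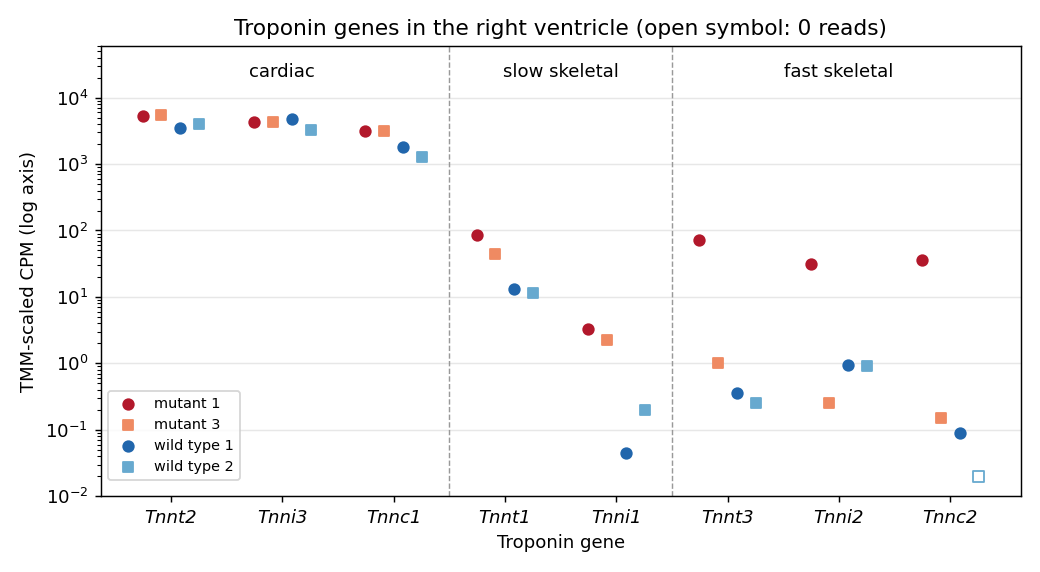
Level of each troponin gene in each library as TMM-scaled CPM on a log axis, with cardiac, slow skeletal and fast skeletal genes in separate blocks. The mutant points lie above the wild-type points for Tnnt1 and Tnni1, while for Tnnt3, Tnni2 and Tnnc2 mutant 1 stands alone at 70.7, 31.8 and 35.4 CPM; the open symbol is a library with 0 reads.

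Windows around the annotated start of the genes are shown first, because Tnnt1 and Tnni1 were higher together while Tnni3, next to Tnnt1, was not. RefSeq windows of 300 bases on GRCm38.p6 (250 before and 50 after the start) were matched for 6 of the 8 genes; Tnni2 and Tnnt3 had no entry. Capitals mark the letters of the motifs searched on both strands. These were the E-box of the myogenic factors (CANNTG, in 72.3% of all 32851 windows), the MCAT box of TEAD factors (CATTCC, 14.7%), a GATA site (AGATAA, 11.2%), a TATA box (TATAAA, 13.6%), the MEF2 site (3.19%) and the CArG box of Srf (1.63%). No marked motifs overlapped in the windows printed. The windows are Tnnt1 at chr7:4515926-4516225 (minus strand), Tnni1 at chr1:135799171-135799470 (plus strand, the first of 2 annotated starts), Tnni3 at chr7:4522479-4522778 (minus strand) and Tnnc1 at chr14:31208062-31208361 (plus strand).
Tnnt1: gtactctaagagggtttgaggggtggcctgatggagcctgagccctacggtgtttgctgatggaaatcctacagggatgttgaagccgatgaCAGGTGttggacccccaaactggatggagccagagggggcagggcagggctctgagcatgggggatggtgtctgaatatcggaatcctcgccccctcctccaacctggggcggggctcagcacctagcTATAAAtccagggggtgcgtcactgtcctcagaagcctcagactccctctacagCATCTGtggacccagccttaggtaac
Tnni1: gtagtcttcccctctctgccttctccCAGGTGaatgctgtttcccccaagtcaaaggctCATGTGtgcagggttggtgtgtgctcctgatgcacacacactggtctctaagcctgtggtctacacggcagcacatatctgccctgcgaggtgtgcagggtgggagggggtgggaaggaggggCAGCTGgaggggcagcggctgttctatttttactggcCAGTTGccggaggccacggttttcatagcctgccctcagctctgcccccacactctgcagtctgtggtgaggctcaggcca
Tnni3: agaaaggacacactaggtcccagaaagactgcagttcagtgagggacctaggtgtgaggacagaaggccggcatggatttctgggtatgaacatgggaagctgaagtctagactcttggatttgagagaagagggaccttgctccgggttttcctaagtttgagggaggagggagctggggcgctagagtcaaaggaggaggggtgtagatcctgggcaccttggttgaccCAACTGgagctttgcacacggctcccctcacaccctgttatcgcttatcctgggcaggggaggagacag
Tnnc1: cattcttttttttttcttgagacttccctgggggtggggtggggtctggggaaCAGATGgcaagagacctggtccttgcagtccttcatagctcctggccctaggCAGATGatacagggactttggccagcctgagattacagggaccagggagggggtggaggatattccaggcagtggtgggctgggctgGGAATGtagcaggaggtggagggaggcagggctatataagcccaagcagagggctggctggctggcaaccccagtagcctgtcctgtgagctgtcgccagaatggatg

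The Tnnt1 window held 2 E-boxes and a TATA box, and the printed Tnni1 window 4 E-boxes. The window of the second Tnni1 start, not printed, held 2 E-boxes and 6 CpG pairs. The Tnni3 window held 1 E-box and the Tnnc1 window 2 E-boxes and an MCAT box. Neither a MEF2 site nor a CArG box was found in any of the 8 member windows, which says only that these letters are not there. In the windows printed, CpG pairs numbered 6 for Tnnt1, 5 for Tnni1, 5 for Tnni3 and 1 for Tnnc1. The median over all windows was 7, with quartiles of 3 and 20.

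Tnnt1, the slow TnT gene (mm9 chromosome 7, 4456265 to 4467577, minus strand), stood at 84.7 and 44.1 CPM in the mutants, against 13.3 and 11.4 CPM in the wild types. Every mutant value lay above every wild-type value, and mutant 1 was 1.92 times mutant 3. The means were 64.4 ± 28.7 CPM in mutants and 12.3 ± 1.37 CPM in wild types (SD, n = 2 each). The edgeR log2 fold change was 2.38 ± 0.33 (SE; 5.21-fold), with an adjusted p of 0.0654, and DESeq2 gave an adjusted p of 3.98e-09. Without mutant 1 the edgeR value was 1.87 and passed (adjusted p = 0.00374), with mutant 3 as the only mutant. Tnnt1 ranked 27 of 16128 rows by p.

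Tnni1, the slow and fetal TnI gene (mm9 chromosome 1, 137696410 to 137707542, plus strand), was rare in every library. It was read 70 and 45 times in the mutants, against 1 and 4 times in the wild types, or 2.77 ± 0.696 CPM in mutants and 0.123 ± 0.111 CPM in wild types (SD, n = 2 each). The groups did not overlap. The ratio of the pooled groups was 23.7, with a 95% counting interval of 9.85 to 74.3 that covers counting error only. The edgeR log2 fold change was 4.47 ± 0.67 (SE), with an adjusted p of 0.0751, while DESeq2 gave an adjusted p of 0.000592. With so few wild-type reads the size of the change rested on single libraries: the log2 fold change was 3.75 without wild type 1 and 5.78 without wild type 2.

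Although both slow genes were higher in the mutants, they were read at very unequal levels. Per kilobase of transcript, Tnnt1 exceeded Tnni1 by factors of 28.2 and 21.0 in the mutants, against 325 and 61.4 in the wild types, where the Tnni1 counts were too few to fix the factor.

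Tnnc1, the TnC gene of both cardiac and slow muscle (mm9 chromosome 14, 32021498 to 32024897, plus strand), stood at 3162 and 3111 CPM in the mutants, against 1795 and 1289.7 CPM in the wild types. The mutants were close together and above both wild types, of which wild type 2 was the lower. The means were 3136 ± 36.0 CPM in mutants and 1542 ± 357 CPM in wild types (SD, n = 2 each). The log2 fold change of 1.02 ± 0.29 (SE; 2.03-fold) had an edgeR adjusted p of 0.279 and a DESeq2 adjusted p of 0.0105.

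Tnnt2, the cardiac TnT gene (mm9 chromosome 1, 137732982 to 137748837, plus strand), stood at 5286 and 5398 CPM in the mutants, against 3546 and 3949 CPM in the wild types. The groups did not overlap, yet the difference did not pass. The log2 fold change was 0.51 ± 0.28 (SE), with an edgeR p of 0.105 before and 0.553 after adjustment. The row sums all splice forms of Tnnt2, so a shift between fetal and adult exons cannot be seen in it.

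Tnni3, the cardiac TnI gene (mm9 chromosome 7, 4469910 to 4474045, minus strand), stood at 4260.2 and 4245 CPM in the mutants, against 4729 and 3266 CPM in the wild types. Both mutants fell between the 2 wild types. The log2 fold change was 0.09 ± 0.30 (SE; adjusted p = 0.939 by edgeR), and it turned to -0.20 when libraries were scaled by total reads alone and to -0.16 without wild type 2. No direction is therefore given for Tnni3.

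Set against each other within a library, the 3 cardiac genes were read at closer levels in the mutants than in the wild types. These ratios were computed after the values were seen; they do not depend on how libraries are scaled, but they do rest on transcript lengths and on the nuclease step. Per kilobase of transcript, Tnnc1 was 0.939 and 0.927 times Tnni3 in the mutants, against 0.480 and 0.499 times in the wild types, or 0.933 ± 0.00843 and 0.490 ± 0.0137 (SD, n = 2 each). The groups were far apart relative to the spread within each. Tnnt2 was 0.943 and 0.966 times Tnni3 in the mutants, against 0.570 and 0.919 times in the wild types. That ratio did not overlap either, but wild type 2 lay close to the mutants. An exact two-sided permutation test of 2 against 2 cannot give a p below 0.333, so none was run on these ratios.

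Tnnt3, the fast TnT gene (mm9 chromosome 7, 149684748 to 149701908, plus strand), was read 1516 and 20 times in the mutants, against 8 and 5 times in the wild types, or at 70.7 and 1.01 CPM against 0.356 and 0.252 CPM. Mutant 1 exceeded mutant 3 by a factor of 69.8. The edgeR log2 fold change was 6.85 ± 1.75 (SE; adjusted p = 0.238), and 1.75 without mutant 1. Over part of its length, 7929 bases, Tnnt3 overlaps the opposite-strand row AK082720, which had 136 and 110 mutant reads and 186 and 225 wild-type reads. Whether counting used the strand is not stated, so in the shared stretch reads of these rows cannot be told apart. The mutant 1 count is far above anything in AK082720.

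Tnni2, the fast TnI gene (mm9 chromosome 7, 149628374 to 149630310, plus strand), stood at 31.8 and 0.254 CPM in the mutants, against 0.935 and 0.906 CPM in the wild types. Mutant 3 was thus the lowest of all 4 libraries, and mutant 1 the highest by far. The edgeR log2 fold change of 4.12 ± 1.49 (SE; adjusted p = 0.377) turned to -1.80 without mutant 1. Tnnc2, the fast TnC gene (mm9 chromosome 2, 164602662 to 164605234, minus strand), was read 759 and 3 times in the mutants, against 2 and 0 times in the wild types. The pooled ratio was 392, with a 95% counting interval of 108 to 3242, and it came from mutant 1 alone.

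**Figure D2:**
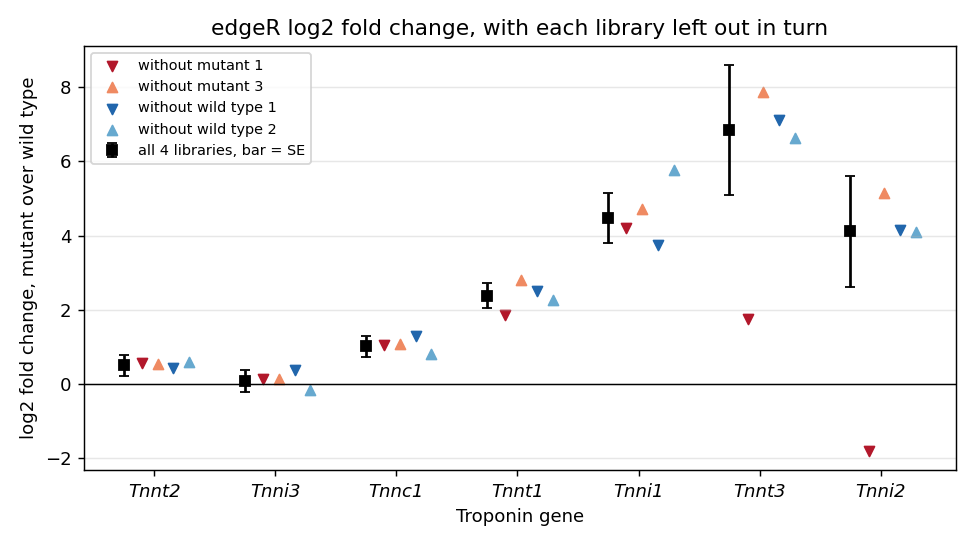
Log2 fold change of mutant over wild type for the 7 troponin genes tested with edgeR; squares with bars are the values from all 4 libraries with their SE, and triangles are the values with 1 library left out. With any 1 library left out the value is at least 1.87 for Tnnt1 and 3.75 for Tnni1, whereas Tnnt3 drops to 1.75 and Tnni2 to -1.80 without mutant 1.

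Expressed as shares of each subunit, skeletal isoforms were a small part of the troponin reads of every heart. Tnnt1 made up 1.76% and 0.916% of TnT reads per kilobase in the mutants, against 0.424% and 0.325% in the wild types. The exact 95% intervals of the raw read shares, 1.49 to 1.63% and 0.757 to 0.865% in the mutants against 0.333 to 0.419% and 0.251 to 0.327% in the wild types, were apart between the groups; they cover counting error only. Tnni1 made up 0.0602% and 0.0426% of TnI in the mutants, against 0.000747% and 0.00488% in the wild types. Both slow shares were thus higher in each mutant than in each wild type.

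The fast shares separated mutant 1 from the rest. In mutant 1 Tnnt3 took 1.44% of TnT, Tnni2 0.879% of TnI and Tnnc2 1.14% of TnC, all per kilobase. In mutant 3 the same shares were 0.0207%, 0.00709% and 0.00504%, and in the wild types they were at most 0.0111%, 0.0329% and 0.00511%. Wild type 2 had 0 Tnnc2 reads, which allows a share of up to 0.0117% of its TnC reads when a count of 0 is taken to allow 3 reads, and the exact 95% interval reaches 0.0144%. The cardiac isoforms therefore made up at least 96.8% of each subunit in all 4 libraries. The effect of the nuclease step on these shares was not tested.

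**Figure D3:**
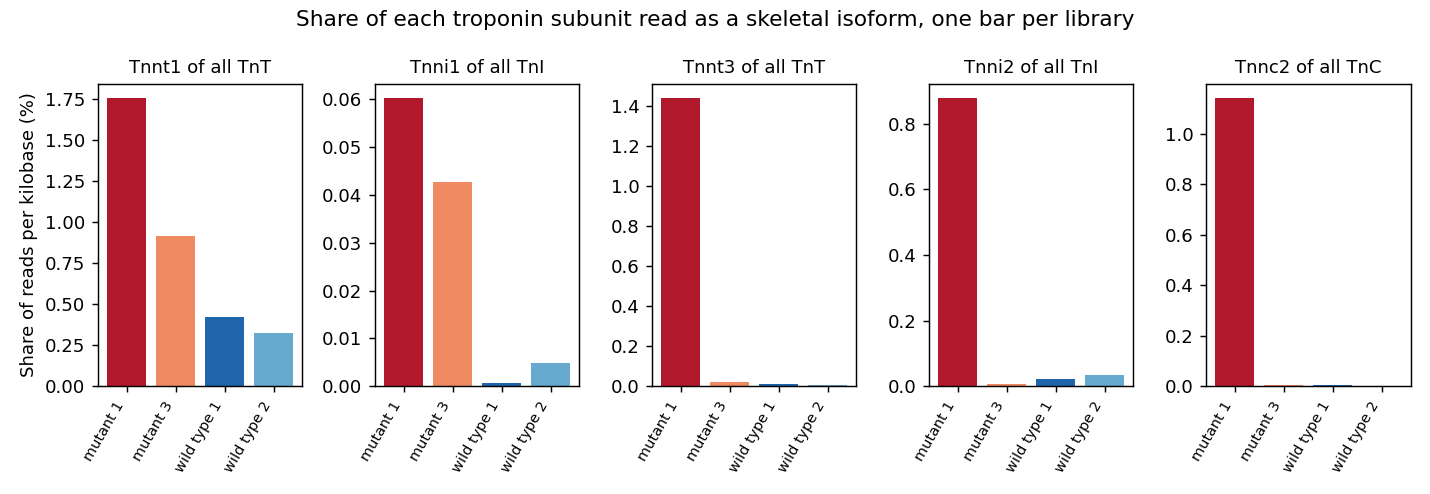
Share of TnT, TnI or TnC reads per kilobase taken by each skeletal isoform, in percent, with 1 bar per library and a separate linear axis per gene. Tnnt1 and Tnni1 are higher in both mutants (1.76% and 0.916% of TnT for Tnnt1), while Tnnt3, Tnni2 and Tnnc2 stand out in mutant 1 only.

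Ordered by mean level per kilobase, the mutants ran Tnni3, Tnnt2, Tnnc1, Tnnt1, Tnnt3, Tnnc2, Tnni2 and Tnni1, and the wild types Tnni3, Tnnt2, Tnnc1, Tnnt1, Tnni2, Tnnt3, Tnni1 and Tnnc2. In the mutants, the 4 steps from Tnnt1 to Tnni1 had overlapping ranges because of the fast genes of mutant 1. In the wild types only Tnni1 and Tnnc2 overlapped.

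Fast-fibre genes outside the troponins were split between the mutants in part. Of 13 listed genes 11 could be tested. By edgeR 0 passed, though 7 had an unadjusted p under 0.05, all higher, beside 6.49% of all rows that were higher. By DESeq2 2 passed, Myh4 and Myl1, beside 0.939% of all rows called higher. Myh4 is named after its value was seen and shares sequence with other myosin genes. The median log2 fold change was 1.98, beside 0.0046 over all rows, and 10 of the 11 lay above 0. Without mutant 1, and so with mutant 3 as the only mutant, the median was 0.13, with 6 of 11 tested genes above 0. Both mutants still lay above both wild types for 4 of the 11, Myh4, Myl1, Casq1 and Mybpc2, beside 22.3% of all rows. They lay below both for 1, beside 22.4%, and 6 overlapped. Myh4 had 951 and 655 mutant reads, against 224 and 238 wild-type reads. Mylpf, the fast regulatory light chain gene, was read 798 and 11 times in the mutants, against 19 and 4 times in the wild types. Atp2a1, the fast calcium pump gene, had 848 and 28 reads in the mutants, against 19 and 32 in the wild types. Pvalb, the calcium buffer of fast fibres, had 256 and 5 mutant reads, against 10 and 9 wild-type reads. These 3 genes were near wild-type counts in mutant 3. Ryr1, Myoz1, Actn3, Myh2 and Myh1, named after their values were seen, were also high in mutant 1 only. Ryr1 had 188 and 3 mutant reads, against 3 and 2 wild-type reads, and Myh1 1085 and 195 against 238 and 266. Myl1, a fast essential light chain gene, went the other way between the mutants, with 422 and 1212 reads against 163 and 132 in the wild types. Casq1, Mybpc2 and Cacna1s, named after their values were seen, did not stand out in mutant 1 either. Casq1 had 414 and 770 mutant reads, against 334 and 190 wild-type reads, and Mybpc2 501 and 520 against 464 and 182. Cacna1s was the 1 tested gene below 0 (log2 fold change -0.38), with 94 and 54 mutant reads, against 109 and 88 wild-type reads.

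As a list, these skeletal fibre markers summed to 297 and 179 CPM in the mutants, against 76.3 and 60.9 CPM in the wild types, with 13 of 13 read in mutant 1, mutant 3 and wild type 1 and Myoz1 at 0 in wild type 2. The 5 markers of myoblasts and satellite cells summed to 4 and 5 reads in the mutants, against 4 and 2 in the wild types, and Myf6 and Pax7 were at 0 in every library. The part of skeletal muscle fibres in the fast troponin values of mutant 1 was not tested.

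**Figure D4:**
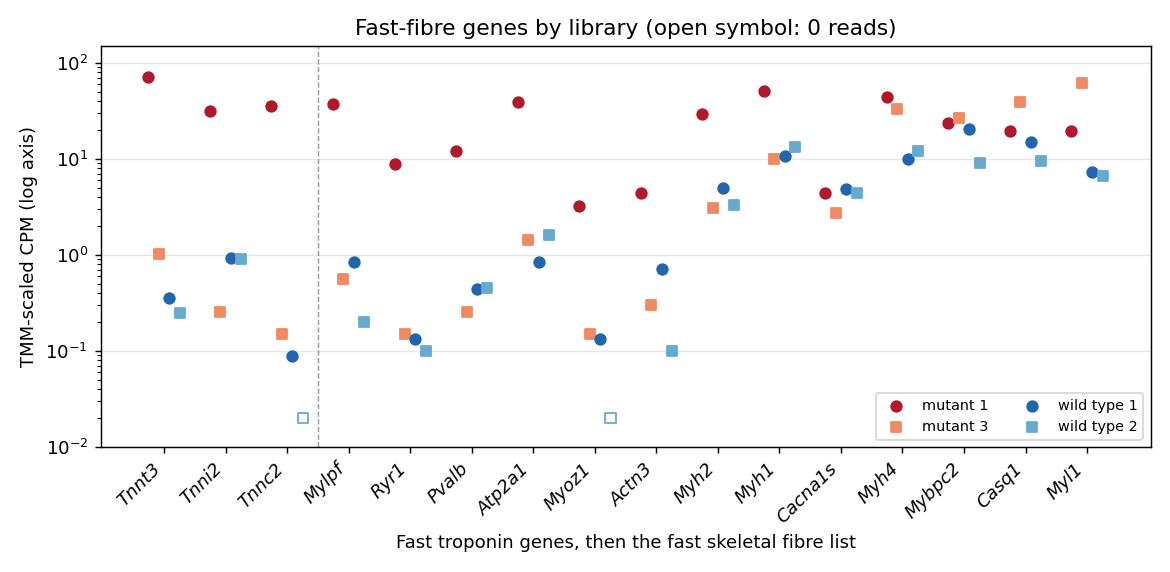
TMM-scaled CPM of the fast troponin genes (left of the dashed line) and of the 13 genes of the fast-fibre list in each library, on a log axis. Mutant 1 lies well above the other 3 libraries for Tnnt3, Tnni2, Tnnc2, Mylpf, Pvalb and Atp2a1. It does so too for Ryr1, Myoz1, Actn3, Myh2 and Myh1, whereas Myh4 and Myl1 are high in both mutants. Open symbols are libraries with 0 reads.

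Neither edgeR nor DESeq2 called any of the 12 thin filament partners of troponin (0 of 12 by each). At an unadjusted p under 0.05 there were 3, all higher, beside 6.49% of all rows that were higher. The median log2 fold change of the 12 was 0.34. Without mutant 1, with mutant 3 as the only mutant, that median was 0.35. Acta1, skeletal alpha-actin, averaged 1472 ± 257 CPM in mutants and 266 ± 212 CPM in wild types (SD, n = 2 each), with a log2 fold change of 2.47 (adjusted p = 0.175). Actc1, cardiac actin, averaged 6427 ± 1108 CPM in mutants and 5804 ± 1566 CPM in wild types, which overlap. Tpm1, the main cardiac tropomyosin gene, averaged 5623 ± 92.0 CPM in mutants and 4215 ± 277 CPM in wild types (adjusted p = 0.630). Lmod2, a leiomodin that lengthens thin filaments, averaged 487 ± 15.3 CPM in mutants and 385 ± 31.8 CPM in wild types (adjusted p = 0.623).

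Developmental and slow muscle genes were few above the filter. Of the 6 embryonic and neonatal genes, 3 were tested and 0 passed by edgeR. At an unadjusted p under 0.05, 2 were higher, beside 6.49% of all rows. By DESeq2 1 passed, beside 0.939% of all rows called higher. That gene was Myh8, neonatal myosin, with 210 and 56 reads in the mutants, against 23 and 30 in the wild types. Myl4, the atrial and embryonic light chain gene, had 1150 and 862 mutant reads, against 475 and 51 wild-type reads, and Myh3 overlapped between the groups. Of 5 listed slow-fibre genes, 3 were tested, Smpx, Myh7b and Tpm3, and 0 passed by edgeR or DESeq2. All 3 were also read in the wild types, Smpx at 212 and 247 CPM, Myh7b at 23.4 and 66.4 CPM and Tpm3 at 30.4 and 26.1 CPM. They therefore cannot single out slow fibres. Smpx, an X-linked small muscle protein gene, was higher at an unadjusted p under 0.05 (log2 fold change 0.55), while Myh7b (0.49) and Tpm3 (0.01) were not.

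Markers of atrial muscle were looked at because atrial tissue can enter a ventricular sample. Of 5 atrial markers, 4 were tested, and 1 passed by edgeR, Nppa, which stressed ventricles express too, beside 0.105% of all rows called higher. All 4 had both mutants above both wild types, as did 22.3% of all rows. The list summed to 3453 and 3084 CPM in the mutants, against 431 and 178 CPM in the wild types, nearly all of it Nppa at 3312 and 2972 CPM in the mutants, against 375 and 173 CPM in the wild types. Myl7, the atrial regulatory light chain gene, stood at 77.4 and 61.8 CPM in the mutants, against 29.6 and 2.72 CPM in the wild types (adjusted p = 0.411 by edgeR). Sln, sarcolipin, stood at 9.43 and 7.30 CPM in the mutants, against 4.54 and 0.201 CPM in the wild types (adjusted p = 0.514 by edgeR). Wild type 2 was thus far below wild type 1 for both, and Bmp10 had 1 read in mutant 1 and 0 elsewhere. The part of atrial muscle in the troponin values was not tested. Both red cell markers in the table were higher too at an unadjusted p under 0.05 (2 of 2, beside 6.49% of all rows). They summed to 2252 and 3331 CPM in the mutants, against 1916 and 1428 CPM in the wild types. At the same threshold 10.9% of all rows differed in either direction. Ventricular muscle markers had 1 higher and 2 lower of 11, smooth muscle markers 1 lower of 5, and fibroblast markers 1 higher and 1 lower of 5. Endothelial and macrophage markers had 0 of 4 and 0 of 3. In these lists edgeR called 0 genes, and DESeq2 called 1, beside 1.21% of all rows. It was the ventricular light chain gene Myl2, which was higher.

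Enzymes and splicing factors that act on troponin did not pass. Of 9 tested kinase and splicing genes, 0 passed by edgeR or DESeq2, and the median log2 fold change was 0.03. At an unadjusted p under 0.05 there was 1 of 9, beside 10.9% of all rows. It was Tnni3k, a cardiac kinase that binds Tnni3, chosen after its value was seen, lower at -0.53 (adjusted p = 0.432). Prkaca, a catalytic subunit of the protein kinase A that phosphorylates Tnni3, had a log2 fold change of 0.03, and Rbm20, a splicing factor of cardiac sarcomere genes, of -0.26. Mbnl1 and Mbnl2, which direct Tnnt splicing, were at 0.26 and 0.32 with wild types that differed from each other.

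The TnI and TnT genes lie in 3 pairs in the mouse genome, each pair on 1 strand. Tnni3 and Tnnt1 are 2332 bases apart with no row between, and Tnnt1 was higher in both mutants whereas Tnni3 was not. Tnni1 and Tnnt2 are 25.4 kb apart with Lad1 between, and Tnni1 differed far more than Tnnt2. Tnni2 and Tnnt3 are 54.4 kb apart with Lsp1 between, and both were high in mutant 1. Tests of the difference between paired genes were not run.

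Within 50 kb of the troponin genes lay 37 rows that are no troponins, of which 25 were tested. Neither tool called any (0 of 25), and an unadjusted p under 0.05 was seen for 3, of which 1 was higher, beside 10.9% of all rows. Some of these rows overlap each other and may share reads. Both mutants lay below both wild types for 10 of the 25, beside 22.4% of all rows, and above them for 1, Phlda3 near Tnni1. The median log2 fold change was -0.26, beside 0.0046 over all rows. One row near Tnnt3, NR_002452, which RefSeq pairs with the noncoding gene Nctc1, had 17 reads in mutant 1 and 0 in the other libraries.

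The rows most like each troponin gene were sought by the root mean square (RMS) difference of centred log2 CPM over the 4 libraries, among 11209 rows. For the fast genes these were mostly genes of the fast-fibre list. Mylpf and Atp2a1 were nearest to Tnnt3 (RMS 0.779 and 1.13), followed by Gdpd3 (1.33), which is not on that list. Pvalb, Atp2a1 and Mylpf were nearest to Tnni2 (0.507, 0.842 and 0.977). For Tnnt1 they were Mmp3, C4a and Ankrd45 (0.216, 0.227 and 0.232; C4a shares sequence with C4b), and for Tnni1 they were Lman1l, Tmem16e and Tbx15 (0.420, 0.435 and 0.456). For the abundant genes many rows lay close, such as Nkd2, Rplp1 and Mef2b for Tnnc1 (0.0337, 0.0359 and 0.0398), Tshz3 for Tnnt2 (0.0155) and Ndufs7 for Tnni3 (0.00715). With 4 libraries a small distance is a description of these samples only.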

How the data were processed

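RNA was measured in 2 Ezh2-deficient and 2 wild-type right ventricles, grouped by sample title. Per the labels' protocols, polyadenylated RNA was made into libraries that a duplex-specific nuclease (DSN) then normalised. Per the submitters' processing notes, TopHat 1.2.0, Cufflinks and mm9 were used; the counting rule and use of strand are not stated. The deposited table gives whole-number read counts, which were the input. The authors also deposited CPM values, which equal reads over the library total, and a ratio and a p-value for each pair of libraries; these were not used for any result. Table starts are counted from 0 (13 of 13 mitochondrial genes) and are printed counted from 1.

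Counts were tested with edgeR 4.0.16 in R 4.3.3 (filterByExpr, 16128 rows; TMM; quasi-likelihood; Benjamini-Hochberg over all rows; two-sided; adjusted p under 0.05 is a call); a script was tested on simulated data. Alternatives were DESeq2 1.42.0 on all rows, limma 3.58.1 (voom), other scalings and filters, and leaving out each library. Levels are TMM-scaled CPM. Lengths are the longest basic coding transcript in GENCODE M21 (GRCm38, lengths only). Members, lists and tests were chosen with earlier results of these data known. Named genes were all members, called list genes or else the 4 of largest level (skeletal lists: largest change), and the 3 nearest patterns. P-values set the group difference against the spread between libraries of a group, estimated in part from all rows. Whether a library is 1 animal is not stated.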

Additional observations from a re-analysis of the deposited data

How the results depend on the processing

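The count of troponin genes called, 0 with edgeR, was also 0 with limma-voom, RLE scaling, upper quartile scaling and without mitochondrial, X and Y rows. It was 3 with DESeq2 (Tnnt1, Tnni1, Tnnc1), 2 at an adjusted p under 0.1 (Tnnt1, Tnni1), 4 with total counts scaling, 5 with no filter, and 1 to 5 when a library was left out: 1 without mutant 1 (Tnnt1), 5 without each of the others. Over all rows the 21 calls became 205 with DESeq2, 156 with total counts scaling (76 higher and 80 lower, against 17 and 4), 317 with no filter, 9 without mitochondrial, X and Y rows, 69 at an adjusted p under 0.1, and 63 to 3675 with a library left out (63 without mutant 1, 109 without mutant 3, 2046 without wild type 1, 3675 without wild type 2). The cause was not tested. Where 1 library remained in a group, its spread was taken from the other group.

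Total counts scaling moved the median of all rows to -0.28, and Tnni3 to -0.20. With a library left out, Tnni3 ranged from -0.16 to 0.38 and Tnni2 from -1.80 to 5.14, and the Tnni2 share of TnI (mutant minus wild type) from -0.0211 to 0.851 percentage points. The adjusted p over 11 alternatives ranged from 3.98e-09 to 0.0850 for Tnnt1 (passed in 7) and from 7.14e-05 to 0.144 for Tnni1 (6); the sign held in all 11 for both, and for Tnnt2, Tnnt3 and Tnnc1. The difference in the Tnni1 share was 0.0486 points, and 0.0613 with no division by length. Tnnc2 could be tested with no filter (adjusted p = 7.14e-05) but did not pass by DESeq2 (0.227). Leaving mutant 1 out of the list medians was chosen after seeing the data. With 0 to 8 reads in a wild-type library, depth limits the fold of Tnni1, Tnnt3 and Tnnc2. No paired analysis was possible because the groups share only replicate number 1.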
